A study of Homo sapiens with 2 samples.

Results

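The transporters examined here were 10 genes of the ABCB, ABCC and ABCG2 drug exporters, namely ABCB1, ABCB4, ABCC1, ABCC2, ABCC3, ABCC4, ABCC5, ABCC6, ABCC10 and ABCG2. Every probe whose platform annotation gives 1 of these symbols was taken, and each probe was kept separate. This gave 12 of the 47323 probes of the array, for 8 of the 10 genes, of 20046 genes with a named probe in all. ABCC1 and ABCC6 had no probe under their symbols and were not analysed here. ABCB1, ABCC4 and ABCC5 had several probes, and ABCB4, ABCC2, ABCC3, ABCC10 and ABCG2 had 1 probe each.

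Total RNA of A2058, an established human melanoma cell line, was measured on Illumina bead arrays, 1 for the parental line and 1 for its drug-selected derivative, labelled carmustine-resistant. Carmustine alkylates and crosslinks DNA, and the derivative was selected with it for 6 months, per the labels at 100 uM. The methods describe cycles of exposure and regrowth at a dose raised step by step to that level, with no cloning step named. The parental line was cultured alongside the selection.

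ABC transporters use the energy of ATP to move compounds across membranes. ABCB1, also known as P-glycoprotein, and ABCG2 export many hydrophobic drugs and also the Hoechst dye. The study used exclusion of this dye to count a side population, which it found larger in drug-selected cells. It also reports that drug-selected cells were more resistant to carmustine or paclitaxel. How the exporter RNA levels relate to that count or to that resistance was not tested here. The ABCC proteins mainly export organic anions, among them drugs and metabolites coupled to glutathione, glucuronate or sulfate. In many tumours such pumps are known as a route of resistance to several drugs at once. The comparison asks which exporters differ in RNA level between parental cells and the cells that carmustine left.

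ABCC3 was the only detected exporter that was higher in drug-selected cells, at 10.4-fold, and ABCB1, ABCB4, ABCC2 and ABCC4 were lower. ABCC5 and ABCC10 lay below parental cells too, ABCC5 past 2-fold by 1 of its 2 detected probes and ABCC10 within 2-fold. Neither array measured ABCG2 well above background. Higher and lower mean here a fold above 2 or under 0.5, drug-selected over parental, on signals corrected for background and quantile normalized. With 1 array in each group there is no replicate check and no test, so no difference has a p-value, and precision is limited by the number of arrays. In bulk RNA, fewer cells of a type and less RNA per cell cannot be told apart.

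**Figure D1:**
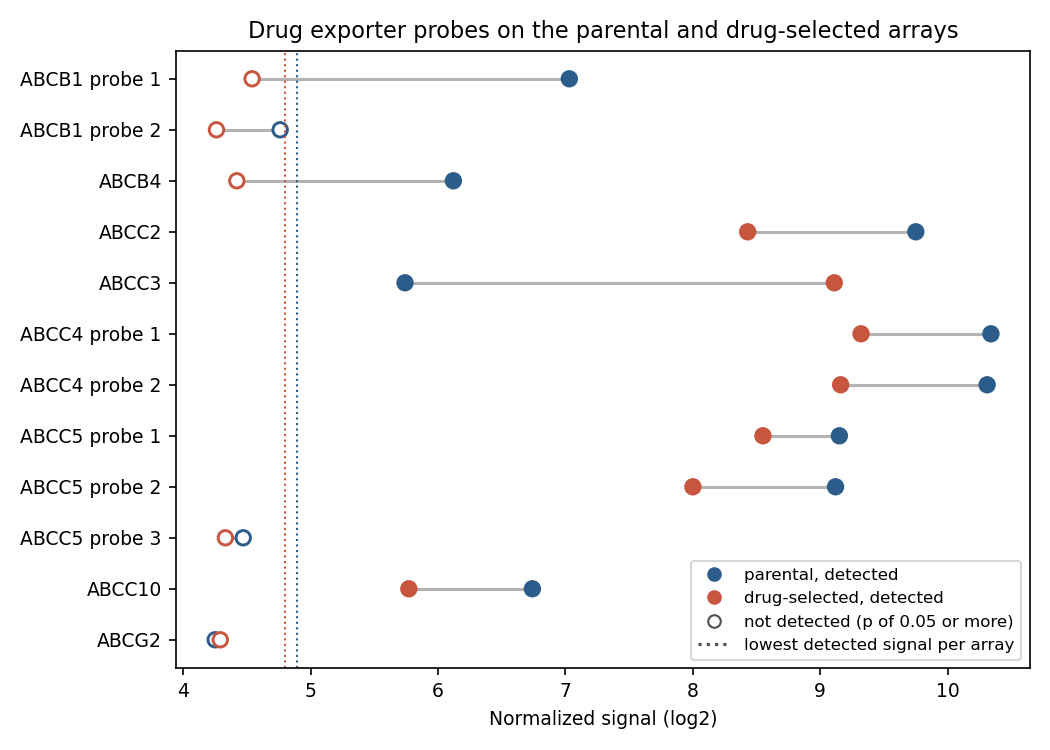
Normalized signal (log2) of the 12 exporter probes on the parental and the drug-selected array, 1 point per array, with open circles for probes that were not detected and dotted lines at the lowest detected signal of each array. ABCC3 is the only detected probe whose drug-selected point lies to the right, at 9.11 against 5.74.

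Detection was read from the p-value that the deposited table gives each probe against the negative control beads of its array, with a limit of 0.05. A p of 0 means a signal brighter than every control bead type, and the next step above 0 was 0.0013. Both arrays detected 7 of the 12 probes, the parental array alone detected 2, the drug-selected array alone detected 0, and 3 were at background throughout. Of the 9 detected probes, 1 was higher, 6 were lower and 2 were within 2-fold. The shares among all 23307 detected probes were 5.84% higher and 5.07% lower. The ABCB1 probe and the ABCB4 probe among the lower ones passed the detection limit on the parental array only. Of the 1734 probes of that kind, 0 were higher and 9.86% lower, while 15.1% of the 3213 probes detected in drug-selected cells alone, a class with no exporter in it, were higher. Among the 7 exporter probes detected on both arrays, 1 was higher and 4 were lower, against 4.77% and 5.50% of the 18360 probes detected on both arrays. The exporters were chosen with earlier results of these data known, so these shares are a description.

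Signals were brighter on the drug-selected array, with a median of 63.1 against 52.5. Without normalization between the arrays the median log2 difference of the detected probes was 0.35, and higher probes made up 84.3% of those past 2-fold, against 53.6% after quantile normalization. Each exporter below is therefore also given by its range over 7 other ways of correcting or scaling the signals. Between probes of 1 gene, the log2 differences had a pooled SD of 0.305 over 2892 genes with several probes detected on both arrays. These probes share the same 2 arrays, so this SD leaves out spread between arrays and between cultures. The melanocyte identity of the line was checked too. Among all 12832 detected genes 7.12% were higher and 5.84% lower, the shares to set beside each marker list here. Of 7 detected melanocyte markers 5 were lower, and their summed normalized signal was 43568.9 in the parental line and 4230.3 after selection. PMEL and TYR were the brightest of them in the parental line, at 14.63 and 13.15 on the log2 scale. TYR was 303-fold, MLANA 27.7-fold and PMEL 13.2-fold lower, and MITF was 6.45-fold lower by 1 of 2 probes. In drug-selected cells TYR was near background, with a signal of 69.0 and a detection p of 0.0208. SOX10, a lineage transcription factor, was within 2-fold at -0.91. Among markers of other cells, 4 of 7 detected fibroblast markers were higher and 2 lower with sums of 3706.4 and 1807.1, 1 of 5 epithelial markers was higher with sums of 140.9 and 325.7, 2 of 4 leukocyte markers were higher with sums of 1280.9 and 2761.7, and 1 of 4 hepatocyte markers was higher with sums of 131.7 and 201.5. PTPRC and CD3E of leukocytes, CDH1 of epithelia, APOA1 and APOB of hepatocytes and COL1A2 of fibroblasts were detected on neither array. ALB of hepatocytes was detected on both arrays, with signals of 71.4 and 86.9. COL1A1 of fibroblasts was detected on the drug-selected array only, with signals of 49.7 and 84.8. In the same lists CD14 was 10.4-fold, FAP 5.50-fold and PDGFRB at least 6.65-fold higher. COL3A1 was at least 2.31-fold, KRT8 at least 6.95-fold and SERPINA1 at least 3.38-fold higher. The 2 lower fibroblast markers, DCN and LUM, were 8.32-fold and 3.06-fold lower, with parental signals of 429.3 and 2701.2. The part of these markers in the exporter differences was not tested.

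ABCC3 exports glucuronide and other organic anion conjugates and sits in the basolateral membrane of polarized cells. Its probe had a deposited signal of 75.4 in the parental line and 668.8 after selection, with a detection p of 0 on both arrays. It was thus measured on both sides, low in parental cells and far above the control beads in drug-selected cells. The normalized log2 signals were 5.74 and 9.11, a difference of 3.38 or 10.4-fold. Among all detected probes, 0.446% were raised by as much or more. Over the 7 other settings the difference ranged from 2.75 with a background offset of 50 to 3.85 with an offset of 0, and it was past 2-fold in all 7. ABCC3 has 1 probe under its symbol, so no second probe checks this value. From the same arrays, the study also names ABCC3 among several ABC genes that were higher in drug-selected cells.

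ABCB1 encodes the multidrug efflux pump P-glycoprotein, and ABCB4, its neighbour on chromosome 7, encodes a phospholipid exporter of the liver canaliculus. Both were detected in parental cells only. The first ABCB1 probe had a signal of 140.5 in the parental line and 57.9 after selection, with detection p-values of 0 and 0.264. The drug-selected value was thus not well above background, and the fold is a lower bound, against the lowest signal of any detected probe on that array (4.80 on the log2 scale). ABCB1 was at least 4.70-fold lower. Its measured log2 signals were 7.03 and 4.54. The bound depended on the background correction and scaling, and its log2 value was -2.23 here and ranged from -3.28 to -1.41 over the 7 other settings, so that with a background offset of 50 ABCB1 was at least 2.66-fold lower. The second ABCB1 probe, annotated to the same transcript, was detected on neither array, with signals of 53.8 and 42.3 and detection p-values of 0.0896 and 0.927. It therefore gives no fold, and the ABCB1 difference rests on 1 of 2 probes. Over the other settings the measured difference of the first probe ranged from -3.97 to -1.52.

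ABCB4 had a signal of 88.6 in the parental line and 52.8 after selection, with detection p-values of 0 and 0.521. It was at least 2.50-fold lower, with measured log2 signals of 6.12 and 4.42. The log2 value of this bound was -1.32 and ranged from -2.18 to -0.74 over the 7, under 2-fold with an offset of 50, with no background correction and in the authors' normalized values.

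ABCC2, ABCC4, ABCC5 and ABCC10 were detected on both arrays, and each of their detected probes was dimmer in drug-selected cells. ABCC2, which exports conjugates across the apical membrane, had a signal of 768.8 in the parental line and 433.0 after selection and normalized log2 signals of 9.75 and 8.43. It was 2.50-fold lower, and 2.55% of all detected probes were lowered by as much or more. Its difference ranged from -1.36 to -0.90 over the other settings.

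ABCC4 exports cyclic nucleotides, prostaglandins and nucleotide analogue drugs. Its 2 probes, annotated to the same transcript, gave signals of 1146 and 1127 in parental cells and 765.0 and 687.6 in drug-selected cells. They were 2.03-fold and 2.22-fold lower, with log2 differences of -1.02 and -1.15. The 2 probes differed from each other by 0.13, less than the spread between probes of a gene, and both lay near the 2-fold limit. Over the other settings the first ranged from -1.04 to -0.62 and was past 2-fold in 4 of 7, and the second ranged from -1.18 to -0.75 and was past it in 6 of 7.

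ABCC5 also exports cyclic nucleotides and nucleotide analogues, and its probes did not fall on the same side of the limit. The first probe had signals of 516.7 and 463.7 and a log2 difference of -0.60, within 2-fold. The second had signals of 506.6 and 332.0 and a log2 difference of -1.12, or 2.17-fold lower. The annotation assigns these probes to different transcripts of the gene, and the gap between them was 0.52. Over the other settings the first ranged from -0.62 to -0.19 and was past 2-fold in 0 of 7, and the second ranged from -1.17 to -0.70 and was past it in 6 of 7. The remaining probe, annotated to the transcript of the first, was detected on neither array, with detection p-values of 0.414 and 0.753.

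ABCC10, whose product exports taxanes among other compounds, had signals of 120.4 and 99.6 with a detection p of 0 on both arrays. Its log2 difference was -0.96, within 2-fold, and it ranged from -1.23 to -0.55 over the other settings. ABCG2, the breast cancer resistance protein, had signals of 35.0 and 45.3 with detection p-values of 0.955 and 0.834, so neither a level nor a difference can be given. ABCB5, a transporter that the study names as a melanoma stem marker, was likewise not well above background. Its signals were 34.2 and 43.7, with detection p-values of 0.964 and 0.887. The study also measured ABCG2 and ABCB5 by qPCR, and its text does not state their directions.

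**Figure D2:**
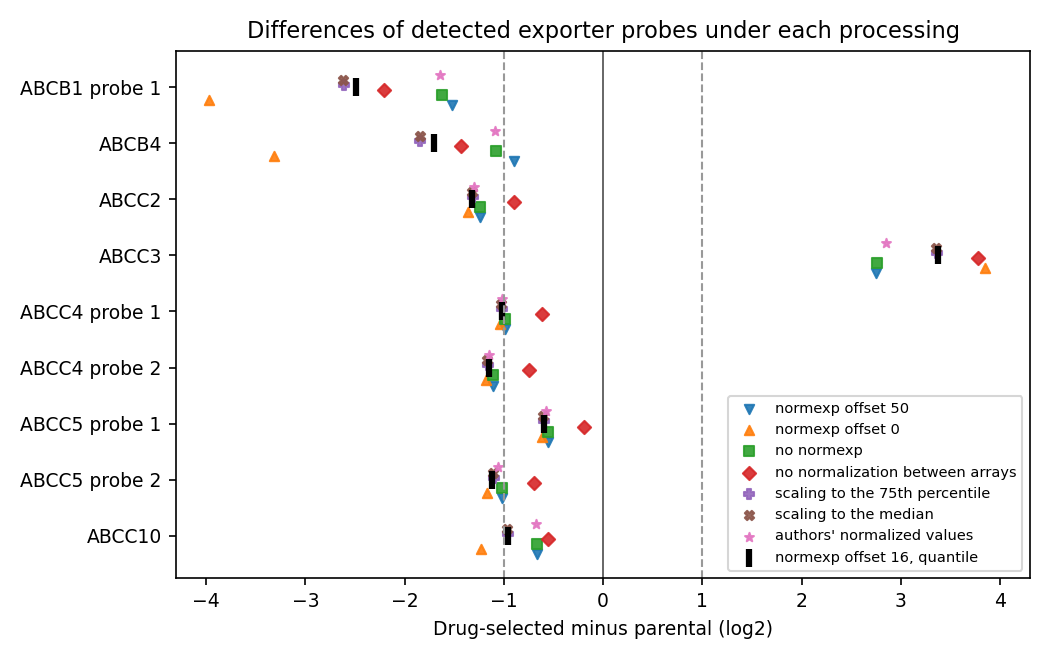
Drug-selected minus parental difference (log2) of the 9 detected exporter probes, with a black bar for the signals reported here, coloured points for 7 other settings and dashed lines at 2-fold. ABCC3 lies from 2.75 to 3.85 in the other settings, the other 8 probes lie below 0 in each of them, and the unnormalized values lie nearest to 0 for the ABCC probes other than that of ABCC3.

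Among all detected probes 50.3% lay below 0 after quantile normalization. All 8 detected exporter probes other than that of ABCC3 stayed below 0 under every setting tried, with no normalization between the arrays among them. How many passed 2-fold did change. Without normalization between the arrays 2 exporter probes were lower, those of ABCB1 and ABCB4. Relative to the median of all detected probes, which that setting leaves at 0.35, 5 were lower and the median exporter probe lay at -1.04, against -1.11 after quantile normalization. The second ABCC4 probe, the ABCC2 probe and the second ABCC5 probe stayed past 2-fold relative to that median in all 7 settings, and the first ABCC4 probe did in 2 of 7.

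Promoter sequences are shown for the exporters that were lower by every detected probe and have an entry in the RefSeq table, as the regions upstream of genes that moved in the same direction. They are the 250 bases before the annotated start (RefSeq, GRCh38.p14), and for ABCB1 the downstream one of 2 annotated starts. Of the 10 genes 7 have an entry, and ABCB4, ABCC1 and ABCC3 have none. Capitals mark matches, on either strand, to the motifs searched: the GC box GGGCGG, the CCAAT box CCAAT, the core of the antioxidant response element TGACNNNGC, the E-box CACGTG, the AP-1 sites TGACTCA and TGAGTCA, and the TATA box TATAAA.
ABCB1, chr7:87600885-87601134, strand -: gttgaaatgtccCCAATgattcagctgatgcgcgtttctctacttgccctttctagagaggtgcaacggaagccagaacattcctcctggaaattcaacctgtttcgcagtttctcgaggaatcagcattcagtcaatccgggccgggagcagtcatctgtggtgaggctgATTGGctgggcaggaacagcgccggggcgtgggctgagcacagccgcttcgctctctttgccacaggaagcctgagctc
ABCC2, chr10:99782390-99782639, strand +: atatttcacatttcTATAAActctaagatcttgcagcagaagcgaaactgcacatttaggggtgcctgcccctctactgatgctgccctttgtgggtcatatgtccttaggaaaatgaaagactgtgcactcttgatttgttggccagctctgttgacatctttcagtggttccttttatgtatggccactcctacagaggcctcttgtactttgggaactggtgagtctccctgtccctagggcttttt
ABCC4, chr13:95301452-95301701, strand -: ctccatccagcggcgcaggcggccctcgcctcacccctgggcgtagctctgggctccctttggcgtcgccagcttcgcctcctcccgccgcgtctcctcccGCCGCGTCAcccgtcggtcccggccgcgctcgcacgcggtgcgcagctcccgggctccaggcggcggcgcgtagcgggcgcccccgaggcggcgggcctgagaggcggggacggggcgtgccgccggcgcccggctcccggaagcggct

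The ABCB1 window held 2 CCAAT boxes, 1 on each strand, the ABCC2 window 1 TATA box and the ABCC4 window 1 antioxidant response element core, and these matches did not overlap. Of the 35116 promoters in the table, 32.0% held a CCAAT box, 10.7% a TATA box and 10.9% the antioxidant response element core over the same length. A GC box was in 42.6%, an E-box in 6.34% and an AP-1 site in 4.20%, and none of these was in the 3 windows. The 3 windows shared none of the motifs searched, and their GC content was 55.6%, 45.6% and 80.4%. A match is a run of letters and not a measured binding site.

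On chromosome 7 a further gene beside ABCB1 was lower. The 5 protein-coding genes on each side were read from the order of the GRCh38.p14 annotation, a step added after the exporter values were seen. RUNDC3B, whose annotated span overlaps that of ABCB1, had signals of 89.8 and 54.1 with detection p-values of 0 and 0.445. It was at least 2.56-fold lower, with a measured log2 difference that ranged from -3.25 to -0.91 over the other settings and so was not past 2-fold in each of them. Thus ABCB4, ABCB1 and RUNDC3B, which are consecutive, were all detected in parental cells only. Of all 23307 detected probes, 1734 were detected in parental cells only. Of the 9 detected neighbours of ABCB1 outside the exporter group 1 was lower, against 5.84% of all genes. The other 8 neighbours of ABCB1 with a detected probe were within 2-fold, from -0.65 to 0.43 on the log2 scale, among them CROT beside ABCB4 and SLC25A40 beside RUNDC3B. Beside ABCC3, the 5 neighbours with a detected probe lay between -0.01 and 0.51, within 2-fold.

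**Figure D3:**
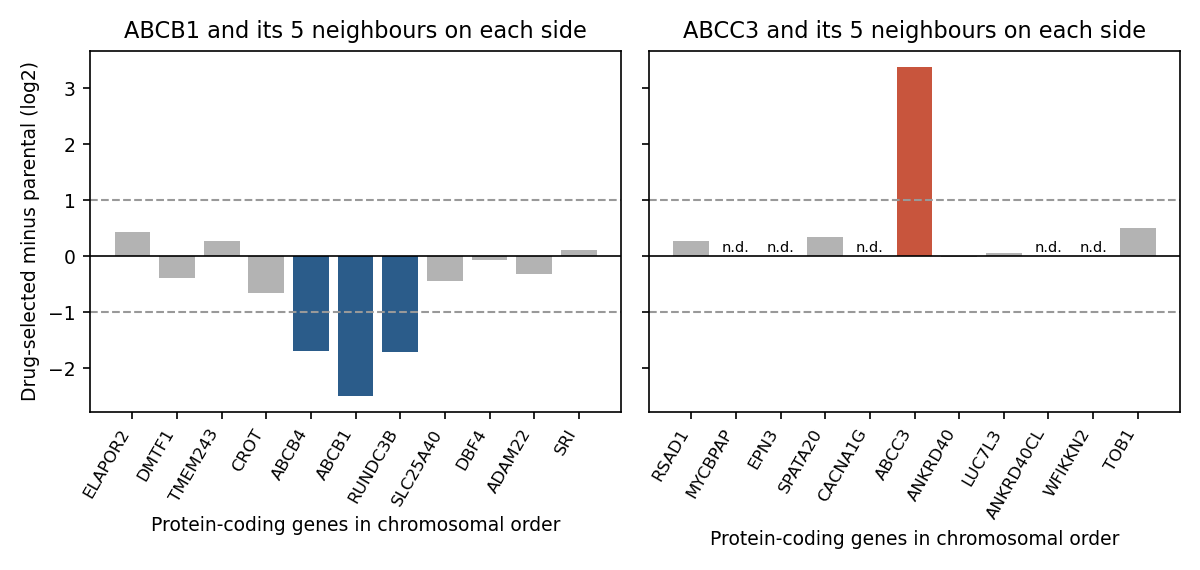
Drug-selected minus parental difference (log2) of ABCB1 and ABCC3 and of the 5 protein-coding genes on each side of them, in chromosomal order without distances. Dashed lines mark 2-fold and n.d. marks genes with no detected or no named probe. ABCB4, ABCB1 and RUNDC3B were not detected in drug-selected cells, so their bars show measured values and the folds are at least 2.50, 4.70 and 2.56, while ABCC3 stands at 3.38 between neighbours within 2-fold.

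The rest of the ABCB and ABCC families did not pass 2-fold. Of 14 such genes 13 had a named probe and 6 were detected, 0 of them higher and 0 lower, with a median log2 difference of -0.23. The shares among all 12832 detected genes were 7.12% higher and 5.84% lower, and their median was 0. The genes detected were the peptide transporters TAP1 and TAP2, and ABCB6, ABCB8, ABCB9 and ABCB10, organelle transporters. Their differences ran from -0.76 for ABCB6 to -0.10 for ABCB10.

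Of 4 detected exporters outside the ABC family 3 were lower, each by its 1 detected probe, with a median of -1.75. The lower share among all detected genes was 5.84%. The copper pumps ATP7A and ATP7B, which also handle platinum drugs, were 3.68-fold and 3.70-fold lower, and SLC47A1, a proton-coupled exporter of organic cations, was 3.09-fold lower. ATP7A fell from a signal of 576.0 to 235.4, ATP7B from 410.4 to 175.1 and SLC47A1 from 494.7 to 238.1. MVP, the major vault protein, was within 2-fold at 0.47. Of 14 detected uptake carriers 1, or 7.14%, was higher and 0 lower, near the 7.12% higher among all genes, and the median was 0. This was SLC22A4, a carrier of ergothioneine and carnitine, 3.50-fold higher with both of its probes past 2-fold.

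**Figure D4:**
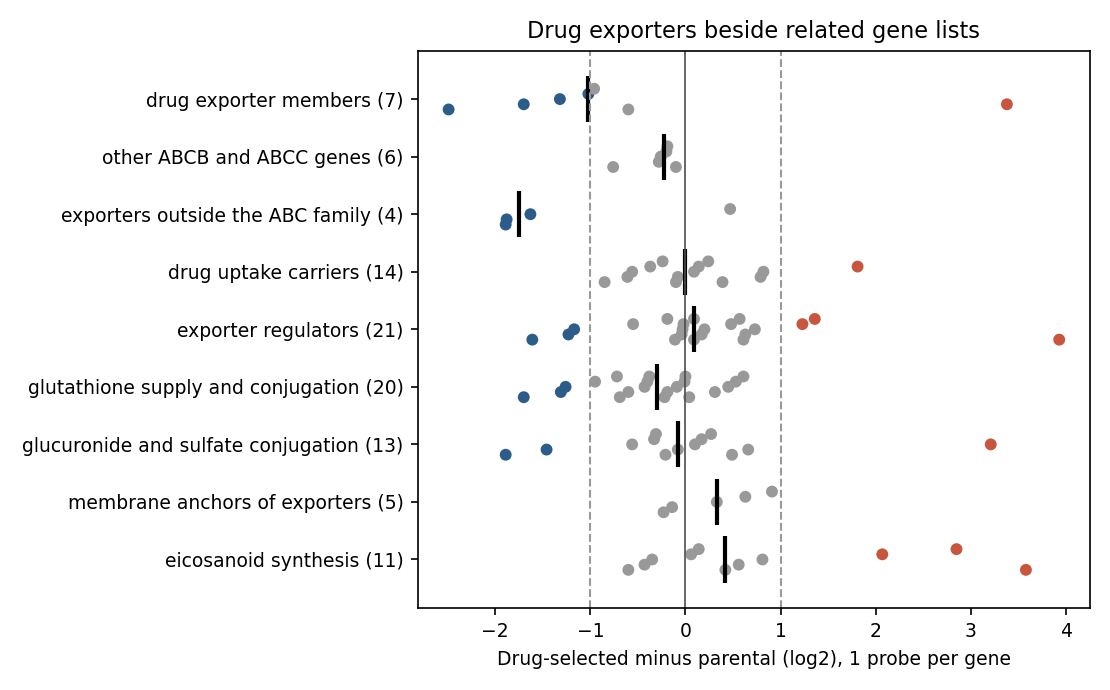
Drug-selected minus parental difference (log2) of each detected gene in the exporter group and in 8 related lists, 1 probe per gene, with the number of detected genes in brackets, black bars at list medians and dashed lines at 2-fold. Genes past 2-fold are coloured, and the exporter median lies at -1.02 with ABCC3 alone to the right of the upper limit.

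The next lists hold the enzymes that make the conjugates exported by ABCC proteins. Of 20 detected genes of glutathione supply and conjugation 0 were higher and 3, or 15.0%, lower, against 5.84% of all genes, with a median of -0.30. These were the glutathione transferases GSTM2 (3.24-fold lower, by 1 of 2 probes), MGST3 (2.48-fold) and GSTA4 (2.39-fold). GSTM genes are close copies of each other, and sharing of signal between their probes was not tested. Of 13 detected genes of glucuronide and sulfate conjugation 1 was higher and 2 lower, or 7.69% and 15.4% against 7.12% and 5.84% of all genes, with a median of -0.08. PAPSS2, which makes the sulfate donor, was 9.26-fold higher. UGT2B17 was at least 2.84-fold and UGT2B11 2.75-fold lower, and sharing of signal between these closely related glucuronosyltransferases was not tested. The UGT2B11 probe was past 2-fold in 4 of 7 other settings, with a drug-selected signal of 71.9 at a detection p of 0.013.

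Of 21 detected transcriptional regulators of exporters 3 were higher and 3 lower, with a median of 0.09. That is 14.3% each, against 7.12% higher and 5.84% lower among all genes. PPARG, the lipid-sensing nuclear receptor, was not detected on the parental array and lay at least 15.0-fold higher by the brighter of 2 probes that both passed 2-fold. HIF1A was 2.57-fold and RXRA, the shared partner of many nuclear receptors, 2.35-fold higher. RXRG was 3.05-fold lower by 1 of 2 probes. The small MAF proteins MAFF and MAFG, partners of NRF2, were 2.35-fold and 2.25-fold lower. For MAFF 2 of 3 probes were past 2-fold, and the MAFG probe was past it in 3 of 7 other settings. NFE2L2, the gene of NRF2, which activates ABCC3 and other detoxification genes, lay at 0.09 and its inhibitor KEAP1 at 0.09.

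None of 5 detected membrane anchors of exporters, such as the ezrin family, passed 2-fold, with a median of 0.33. Among all genes 7.12% were higher and 5.84% lower. Of 11 detected genes of eicosanoid synthesis 3, or 27.3%, were higher and 0 lower, against 7.12% and 5.84% of all genes. The median of these genes was 0.42, and ABCC4 and other ABCC proteins export their products. The prostaglandin enzymes PTGES and PTGS2 were 11.9-fold and 4.21-fold higher, and PTGS1, not detected in parental cells, was at least 5.14-fold higher. ABCC4, the prostaglandin exporter of the group, lay in the opposite direction at -1.02 and -1.15.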

How the data were processed

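Total RNA of parental and drug-selected A2058 cells was hybridized to HumanHT-12 v4 beadchips, 1 array per group. Per probe, the authors deposited a mean bead intensity (linear, neither background-subtracted nor normalized) and a detection p-value against negative control beads. They also deposited a second table of normalized intensity, by a method that the sources used here do not name. Here the deposited intensity was corrected with limma 3.58.1 in R 4.3.3 (normexp from the detection p-values, offset 16), then log2 transformed after quantile normalization. A probe was kept if either array gave it a detection p under 0.05, and related genes were each taken from their brightest kept probe. Where 1 array did not detect a probe, its fold is a lower bound, against the lowest detected signal of that array or the probe's own signal if brighter, while calls past 2-fold use the measured signals. For the scaling alternatives, percentiles were taken over probes detected on both arrays.

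Gene names came from the platform annotation, which gives 1 symbol for 30113 of 47323 probes, and the fold is drug-selected over parental, since the methods' definition by suspended and adherent cells matches neither label. Every exporter was named, and of each related list at most 3 genes past 2-fold in each direction, by size of the difference. ABCB5 and the melanocyte markers MLANA, PMEL, TYR, MITF and SOX10 were named as well. MVP, NFE2L2, KEAP1, the detected ABCB and TAP genes, the markers of other cells and the chromosomal neighbours were named after their values were seen. The exporters and lists were chosen with earlier results of these data known. The scripts were tested on simulated data. Counts and figures used Python 3.11.15 with pandas 2.3.3 and matplotlib 3.10.9.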

Additional observations from a re-analysis of the deposited data

How the results depend on the processing

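The count of exporter probes that were higher was 1 under all 12 alternatives, and the count of lower ones was 6 and ranged from 2 to 8. It was 2 with no normalization between the arrays and 2 at a 3-fold threshold, and it was within 1.5 times the reported count under the other 10. With no normalization the signals of the drug-selected array stayed brighter by construction. For ABCB4 the measured log2 difference was -0.90 with a normexp offset of 50, the only 1 of 7 settings in which it was within 2-fold. Counts of the related lists also moved, with 1 to 7 genes of glutathione supply lower, 1 to 6 regulators higher and 1 to 3 lower, 1 to 3 uptake carriers higher and 0 to 2 lower, 0 to 2 membrane anchors higher, 1 to 2 conjugation genes lower, 2 to 4 eicosanoid genes higher, and 3 exporters outside the ABC family lower throughout. No difference of an exporter past 2-fold changed sign. No paired analysis was possible because each group has 1 array. The array cannot show differences of ABCG2, of the second ABCB1 probe or of the third ABCC5 probe, whose signals were not well above background.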

Other observations

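Some further genes near the exporters passed 2-fold by their measured signals, as values chosen after the data were seen. Among all detected genes 7.12% were higher and 5.84% lower. Of the detected neighbours, 1 of 8 was past 2-fold near ABCC2, 1 of 7 near ABCC4 and near ABCC10, and 2 of 7 near ABCC5. Near ABCC1 1 of 6 was higher and 1 lower, and near ABCC6 1 of 5 was lower. CPN1, the second gene after ABCC2 on chromosome 10, which encodes a subunit of carboxypeptidase N, went from 8.18 to 5.68 on the log2 scale and was 5.66-fold lower. XYLT1, which starts glycosaminoglycan chains on proteoglycans and lies near ABCC1 and ABCC6 on chromosome 16, was not detected in drug-selected cells and was at least 14.5-fold lower. GPC6, a heparan sulfate proteoglycan near ABCC4 on chromosome 13, was 2.97-fold higher. BMERB1, near ABCC1, was not detected in the parental line and was at least 1.87-fold higher. Beside ABCC5, MAP6D1 was 2.10-fold and KLHL6 at least 1.70-fold lower, and beside ABCC10, TJAP1 was 2.07-fold lower. No gene was past 2-fold among the 6 detected neighbours of ABCG2.

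The 2 pseudogenes of ABCC6 have a named probe each. ABCC6P2 was detected on both arrays, with signals of 60.3 and 84.7, detection p-values of 0.0182 and 0.0013 and a log2 difference of 0.30. ABCC6P1 was detected on neither, with detection p-values of 0.10 and 0.112. These copies are near-identical to ABCC6, and which of them the signal came from was not tested.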
